A study of Mus musculus with 6 samples.

Results

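The genes described here encode the subunits of heterotrimeric G proteins and the RGS proteins (regulators of G protein signalling). They were taken by symbol, as the Rgs, Gng, Gngt, Gnb and Gna genes with a numbered or lettered member name. This gave 52 of the 48795 Ensembl gene identifiers counted, 32 for subunits and 20 for RGS proteins. The symbol Gnao1, of the abundant brain subunit Gαo, does not match that rule, so Gnao1 is given only beside the members.

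A heterotrimeric G protein is an α subunit that binds GDP or GTP and a tightly paired βγ dimer, and it couples receptors of the cell surface to enzymes and channels inside the cell. A receptor that has bound its ligand makes the α subunit exchange GDP for GTP. The α subunit and the βγ dimer then act on adenylyl cyclases, phospholipase C, potassium channels and calcium channels. RGS proteins speed the hydrolysis of GTP by the α subunit and so end the signal. In the hippocampus this system carries the effects of acetylcholine, monoamines, adenosine, neuropeptides and metabotropic glutamate and GABA receptors on excitability and transmitter release.

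Polyadenylated RNA of the hippocampus was sequenced from mice labelled WT and from mice labelled ifKO, an inducible forebrain-specific double knockout of the histone H3 lysine 4 demethylases KDM1A and KDM5C (dKO), with 3 libraries per group. The dKO mice carried Kdm1a f/f and Kdm5c f/f alleles and CamKIIα-CreERT2, a recombinase expressed in forebrain principal neurons that acts after tamoxifen. Both groups were given tamoxifen (TMX) at 2 to 3 months of age, on a C57BL/6J background. The labels do not say whether WT mice carried floxed alleles or the recombinase, so an effect of the recombinase cannot be told apart from that of the deletions, and no group lacked 1 enzyme alone. Nor do they say which libraries are separate animals, and p-values cover only the spread among the 6 libraries, which may be technical.

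Libraries held 19309576 to 19700249 counts. The transcript of Kdm1a was lower in every dKO library than in any WT library (73.7 ± 3.95 to 38.6 ± 1.29 counts per 1000000, CPM, mean ± SD, n = 3 each). That of Kdm5c was lower in every dKO library without passing the threshold used below (79.5 ± 2.97 and 70.6 ± 4.67 CPM, log2 fold change -0.17, SE 0.0640). Both are whole-gene counts that include the remaining exons and the cells without recombinase. Markers of hippocampal principal neurons were present in both groups, with Camk2a at 4785 ± 208 CPM in WT and 4521 ± 226 CPM in dKO. In whole tissue, fewer cells of a type and less RNA per cell cannot be told apart.

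Of the 52 genes, 44 had enough counts to be tested, 5 of these rose in dKO and 2 fell. The 5 were the β subunit gene Gnb4, the γ subunit genes Gng4, Gng7 and Gng12, and Rgs9, and the 2 were Rgs4 and Rgs13. A gene is said to rise or fall where its p, adjusted by Benjamini-Hochberg over all 16861 genes tested, was under 0.05 in the quasi-likelihood test of edgeR. The rises were 11.4% of the tested members, where 5.90% of all tested genes rose, and the falls 4.55%, where 1.05% of all tested genes fell. In either direction that is 15.9%, against 6.95% of all tested genes. Of the 42 members above the low-count filter in every library 5 rose and 1 fell. The median log2 fold change of the 44 was 0.04, and that of all genes tested was -0.01. In 12 of the 44 all dKO libraries lay above all WT libraries and in 7 all lay below, which is 27.3% and 15.9% of them, against 14.0% and 11.2% of all tested genes. Together these are 19 of the 44, where 25.2% of all tested genes had groups that did not overlap. An unadjusted p under 0.05 was found for 17 of the 44 (38.6%), and for 20.2% of all tested genes. Counts this small move with single libraries: the number of rises was 3 without WT replicate 1, dKO replicate 1 or dKO replicate 2 and 2 without dKO replicate 3, and the number of falls was 1 without any 1 of the 6 libraries.

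**Figure D1:**
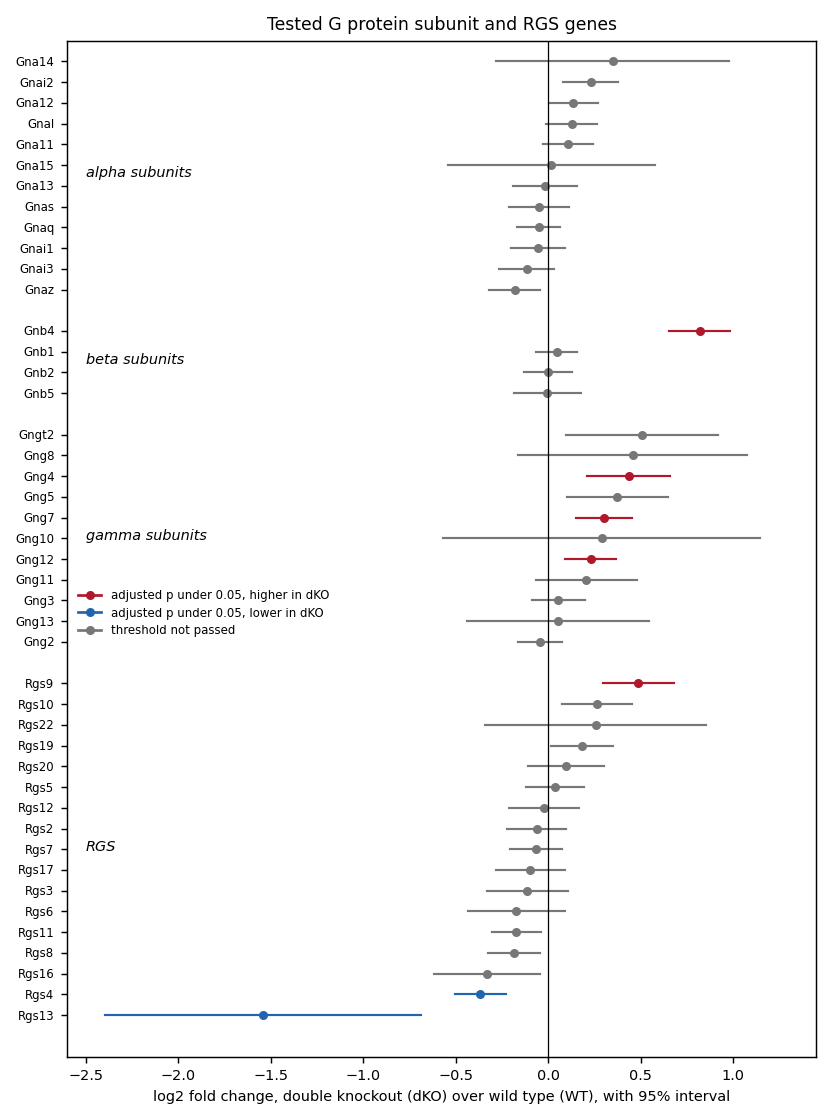
Log2 fold change of dKO over WT (x axis) with its 95% interval for each of the 44 tested genes (y axis, by class). Red points are the 5 genes that rose, blue points the 2 that fell and grey points the rest; the α subunits have no coloured point, and Rgs13 has the widest interval of the coloured ones.

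Promoter windows of members that moved are shown first, because the enzymes deleted here remove methyl groups from histone H3 lysine 4, a residue methylated at promoters and above all at those rich in CpG dinucleotides. Each window runs from 250 bases before to 50 bases after a RefSeq start site (GRCm38.p6), the site nearest the GENCODE start of the gene, and is printed 5′ to 3′ on the strand of the gene. Capitals mark CpG dinucleotides. The first 3 lines are the γ subunit genes that rose together, and the last 2 are the RGS genes that fell.
Gng4, chr13:13783809-13784108, plus strand: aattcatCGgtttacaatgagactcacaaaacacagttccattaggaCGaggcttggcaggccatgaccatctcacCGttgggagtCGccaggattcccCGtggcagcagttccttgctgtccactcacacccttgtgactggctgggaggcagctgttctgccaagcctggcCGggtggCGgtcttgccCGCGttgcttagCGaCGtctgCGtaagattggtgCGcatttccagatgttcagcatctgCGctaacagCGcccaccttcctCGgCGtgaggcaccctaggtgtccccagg
Gng7, chr10:81014876-81015175, minus strand: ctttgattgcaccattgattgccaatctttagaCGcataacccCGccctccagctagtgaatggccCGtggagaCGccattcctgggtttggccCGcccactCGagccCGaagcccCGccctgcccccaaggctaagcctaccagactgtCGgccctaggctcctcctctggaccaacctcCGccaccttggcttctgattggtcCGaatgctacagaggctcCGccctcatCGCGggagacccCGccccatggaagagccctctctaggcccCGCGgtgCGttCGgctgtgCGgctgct
Gng12, chr6:66896147-66896446, plus strand: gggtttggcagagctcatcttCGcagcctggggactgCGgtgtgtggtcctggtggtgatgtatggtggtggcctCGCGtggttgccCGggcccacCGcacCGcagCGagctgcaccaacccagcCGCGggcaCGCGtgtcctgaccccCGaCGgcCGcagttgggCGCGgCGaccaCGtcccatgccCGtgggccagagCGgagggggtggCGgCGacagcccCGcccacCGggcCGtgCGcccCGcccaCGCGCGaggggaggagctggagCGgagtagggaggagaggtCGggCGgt
Rgs4, chr1:169747593-169747892, minus strand: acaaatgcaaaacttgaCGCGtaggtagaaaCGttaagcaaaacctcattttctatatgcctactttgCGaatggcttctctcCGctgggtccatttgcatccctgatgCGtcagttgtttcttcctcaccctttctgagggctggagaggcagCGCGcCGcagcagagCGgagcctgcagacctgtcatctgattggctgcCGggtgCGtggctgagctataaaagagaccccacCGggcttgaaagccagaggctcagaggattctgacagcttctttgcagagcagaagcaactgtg
Rgs13, chr1:144177323-144177622, minus strand: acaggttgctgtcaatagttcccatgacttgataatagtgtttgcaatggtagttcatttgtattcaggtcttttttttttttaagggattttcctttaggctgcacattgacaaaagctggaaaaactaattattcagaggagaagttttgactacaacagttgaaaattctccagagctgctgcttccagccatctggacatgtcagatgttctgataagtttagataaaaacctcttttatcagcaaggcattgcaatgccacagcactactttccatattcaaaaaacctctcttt
The windows differ widely. That of Gng12 holds 34 CpG dinucleotides, that of Gng7 holds 20, that of Gng4 holds 17, that of Rgs4 holds 13 and that of Rgs13 holds 0. The window of Rgs9, the other RGS gene that moved, holds 19. Over the 12016 tested genes with a window the median was 20 and the middle 50% ran from 11 to 28, so Gng4, Gng7, Rgs4 and Rgs9 lie within that range and Gng12 above it. Only 0.616% of the tested genes had as few CpG dinucleotides as Rgs13. The 35 tested members with a window had a median of 21. Of genes across the table with a window, the 742 that rose had a median of 17 and the 132 that fell a median of 16. Windows were at hand for 39 of the 52 members. The other 13 were Gnai2, Gnal, Gnat1, Gnaz, Gnb3, Gnb4, Gng11, Gngt2, Rgs1, Rgs11, Rgs18, Rgs20 and Rgs22.

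Levels are compared between genes per length, as reads per kilobase of annotated exon scaled to 1000000 in each library, called length-scaled units here. Few genes made up most of each class. Gnb1, at 514 ± 19.99 units in WT, was the highest member of all and held 58.3 ± 1.69% of the 5 β subunit genes in WT. Gnb2 held 32.3 ± 1.33% and Gnb5 8.54 ± 0.739%, while Gnb4 held 0.776 ± 0.0628% and Gnb3 had 10 reads over the 3 WT libraries. Gng3 (323 ± 17.3 units), Gng7 (254 ± 17.4) and Gng2 (251 ± 15.7) were the highest γ genes, and the last pair did not differ beyond their spread. Gnai1 (215 ± 17.2 units) and Gnaq (210 ± 9.51), which likewise did not differ beyond their spread, led the α genes taken by the rule, below Gnao1 at 319 ± 17.2. Rgs4 (236 ± 15.6 units) led the RGS genes and held 31.2 ± 1.59% of the units of the 20 in WT, ahead of Rgs5 at 13 ± 1.23%.

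**Figure D2:**
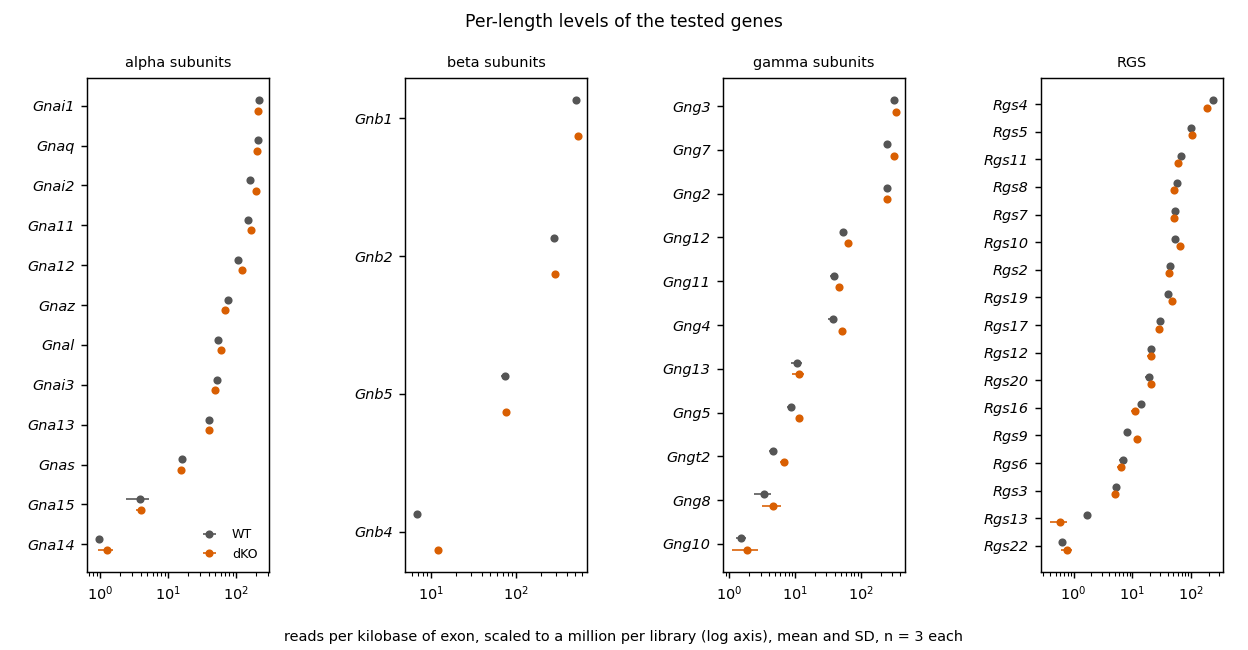
Length-scaled level (x axis, log scale) of each tested member (y axis), WT in grey and dKO in orange, mean and SD of 3 libraries, in panels for α, β and γ subunits and RGS proteins. Gnb1, Gng3 and Rgs4 head their panels, Gnb4 is the lowest tested β gene, and the gap between grey and orange is small beside the range of levels.

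The order of these leading genes was the same in dKO. Among the γ genes, Gng7 (318 ± 24.1 units) then stood nearer to Gng3 (341 ± 11.8) and farther from Gng2 (246 ± 2.31). Summed over the 12 γ genes the level was 988 ± 19.5 units in WT and 1104 ± 30.9 in dKO, and the ranges of 966 to 1000.3 and 1070 to 1130 did not overlap. A large part of that difference came from Gng7, which alone went from 254 to 318 units. The 5 β genes summed to 882 ± 19.7 and 917 ± 19.6 units, from 862 to 900.9 in WT and from 901.5 to 939 in dKO. That gap is too narrow to read as a separation. Unlike CPM, these units had no scaling between libraries beyond their totals. Gnb2, for example, went from 285 ± 10.4 to 290 ± 10.0 units but measured 241 CPM in both groups. The sums of the 15 α genes, 1097 ± 26.9 and 1141 ± 24.2 units, overlapped. The 20 RGS genes summed to 758 ± 25.1 units in WT (730 to 779) and 713 ± 13.9 in dKO (699 to 727), so that here the dKO libraries lay below. Rgs4 alone went from 236 to 186 units, a difference larger than that of the whole RGS sum.

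Among the α subunits 0 of 12 tested genes rose and 0 fell in edgeR's quasi-likelihood test. At an unadjusted p under 0.05 there were 3 of 12 (25.0%), close to the 20.2% of all tested genes. DESeq2 called 1 higher and limma-voom called 0. The 3 were Gnai2, Gnaz and Gna12. Gnai2 encodes Gαi2, which inhibits adenylyl cyclase and is also abundant in glia and immune cells. It measured 157.0, 140.2 and 165.3 CPM in the WT libraries and 173, 191 and 178 CPM in the dKO libraries, so the groups did not overlap. Its log2 fold change of 0.23 (SE 0.0695, edgeR, Benjamini-Hochberg adjusted p = 0.069) missed the threshold. It passed in 3 of 9 other settings, which were DESeq2 (adjusted p = 0.0381), scaling by library size alone (0.0427) and no filter on low counts (0.0426). Of the 6 fits with a library left out it passed in 1, without WT replicate 3 (0.0224). Its largest adjusted p was 0.270, in edgeR without dKO replicate 2.

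Gnaz, the gene of Gαz, an inhibitory subunit of neurons and platelets that hydrolyses GTP slowly, went the other way. It measured 72.8, 66.0 and 69.3 CPM in WT and 63.0, 62.5 and 58.0 CPM in dKO, again with no overlap. Its log2 fold change of -0.18 (SE 0.0632, edgeR, Benjamini-Hochberg adjusted p = 0.115) likewise missed the threshold. It passed only after correction for GC content, without a replicate block (0.0442) and with one (0.0372). Gna12, whose product acts on the actin cytoskeleton through guanine nucleotide exchange factors, measured 92.3 ± 4.47 CPM in WT and 101 ± 3.72 CPM in dKO.

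Other α genes gave smaller differences or wider spreads. Gna11 and Gnaq encode the Gq subunits that activate phospholipase Cβ. Gna11 measured 160.9, 142.9 and 161.5 CPM in WT and 163.8, 172.3 and 165.5 CPM in dKO, higher in each dKO library, with a 95% interval of the difference of -1.94 to 18.5%. For Gnaq, whose groups overlapped, the interval was -10.9 to 4.55%. Gnai3, a further inhibitor of adenylyl cyclase, measured 41.2, 45.1 and 40.6 CPM in WT and 40.4, 38.3 and 38.4 CPM in dKO, lower in each dKO library (-16.8 to 2.18%), and Gnai1 gave -12.8 to 6.65%. The interval was -13.6 to 7.92% for Gnas and -0.841 to 20.1% for Gnal, which both encode stimulators of adenylyl cyclase. Gna13, which acts with Gna12, gave -12.4 to 11.4%, and Gnao1, outside the rule, -10.4 to 4.35%. Of the annotated exon bases of Gnas 22.0% are shared with the antisense gene Nespas or with Gm20721, and reads in shared bases may have been left out or split, which makes its low level of 44.7 ± 2.82 CPM in WT uncertain. Gna14 and Gna15, the rarer Gq-type genes, were near 1 CPM (0.828 ± 0.103 in WT) and 2 CPM (2.07 ± 0.804 in WT).

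Gnb4 rose by 76.5% (95% interval 57.4 to 97.8%) and had the smallest adjusted p of all members. The gene encodes Gβ4, a β subunit close in sequence to those of Gnb1 and Gnb2 and less abundant in brain. Gnb4 (ENSMUSG00000027669, chromosome 3, 32580332 to 32616585, minus strand, GRCm38) measured 22.9, 21.8 and 20.04 CPM in the WT libraries and 38.8, 37.6 and 37.9 CPM in the dKO libraries. The lowest dKO library stood well above the highest WT library, and the dKO libraries were close together. Its log2 fold change of 0.82 (SE 0.0766, edgeR, Benjamini-Hochberg adjusted p = 7.50e-06) passed in all 9 other settings and with any 1 library left out. Its share of the β genes went from 0.776 ± 0.0628% to 1.34 ± 0.0554%, so Gnb4 stayed a minor β gene in this tissue.

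The other β genes gave no call. Gnb1 measured 546 ± 21.7 CPM in WT and 564 ± 10.0 CPM in dKO (95% interval of the difference -4.53 to 11.5%), and Gnb2 241 ± 13.5 and 241 ± 10.2 CPM (-8.71 to 9.54%). Gnb5 encodes the divergent β subunit that binds RGS proteins of the R7 family in place of a γ subunit, and it measured 58.5 ± 7.07 and 58.3 ± 3.67 CPM (-12.1 to 13.1%). Gnb3, the β subunit gene of cone photoreceptors and ON bipolar cells, had 10 reads in WT and 3 in dKO, a ratio of 0.296 with a 95% counting interval of 0.0524 to 1.15, and was too low to test. The protein-coding neighbours of Gnb4, Mfn1 at 1092 bases and Actl6a at 89712 bases, did not pass the threshold, with log2 fold changes of -0.05 (SE 0.0747) and 0.08 (SE 0.102).

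Of 11 tested γ subunit genes 3 rose and 0 fell in edgeR's quasi-likelihood test, with 5 of 11 at an unadjusted p under 0.05. Over all tested genes 5.90% rose and 20.2% had an unadjusted p under 0.05. DESeq2 and limma-voom each called 2 higher and 0 lower. The median log2 fold change of the 11 was 0.29, which is the value of Gng10 (SE 0.398, 29 reads in WT and 36 in dKO). Gng2 alone had a log2 fold change below 0. The γ subunit anchors the βγ dimer in the membrane through a prenyl group and takes part in its choice of receptor and effector.

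Gng4 encodes a γ subunit of the nervous system. Gng4 (ENSMUSG00000021303, chromosome 13, 13784059 to 13827896, plus strand) measured 37.1, 29.4 and 27.4 CPM in WT and 46.8, 40.1 and 39.97 CPM in dKO. Replicate 1 was the highest library of each group, and the highest WT library came near the lowest dKO library without reaching it. The log2 fold change was 0.43 (SE 0.105, edgeR, Benjamini-Hochberg adjusted p = 0.0215). The call was lost without WT replicate 2 (0.0771), dKO replicate 1 (0.106) or dKO replicate 3 (0.0521).

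Gng7 encodes γ7, best known from the striatum, where it forms the Golf trimer with the product of Gnal. Gng7 (ENSMUSG00000048240, chromosome 10, 80948624 to 81014945, minus strand) measured 227, 252 and 238 CPM in WT and 267, 317 and 301 CPM in dKO, a rise of 23.2% (95% interval 11.0 to 36.7%). All dKO libraries were above all WT libraries, with dKO replicate 1 nearest to them. In counts this was the most abundant member to pass the threshold (log2 fold change 0.30, SE 0.0696, edgeR, Benjamini-Hochberg adjusted p = 0.0166). The call was lost without WT replicate 1 (0.0772), dKO replicate 2 (0.103) or dKO replicate 3 (0.0899).

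Gng12 encodes a γ subunit found in many tissues and in glia. Gng12 (ENSMUSG00000036402, chromosome 6, 66896397 to 67021350, plus strand) measured 65.0, 66.6 and 58.3 CPM in WT and 75.3, 72.3 and 75.3 CPM in dKO. The groups did not overlap, and WT replicate 3 was the lowest library. Its call was the least secure of the rises (log2 fold change 0.23, SE 0.0642, edgeR, Benjamini-Hochberg adjusted p = 0.0456). It was lost in DESeq2 (0.0513), limma-voom (0.0524) and with a replicate block (0.0616), and without WT replicate 1 (0.0808), WT replicate 3 (0.0926) or dKO replicates 1, 2 and 3 in turn (0.146, 0.0964 and 0.193).

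**Figure D3:**
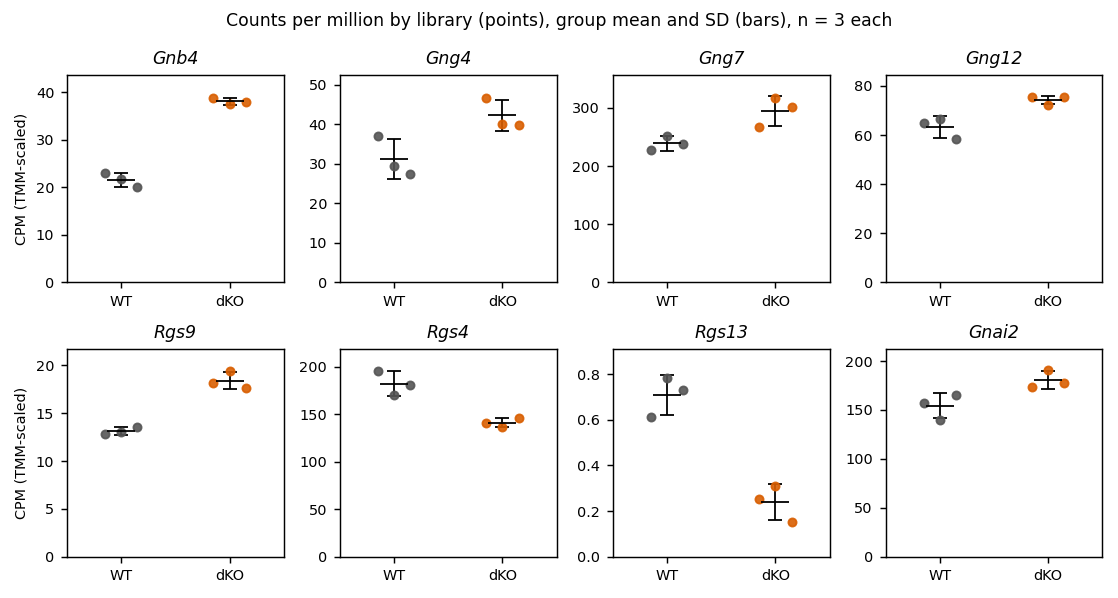
CPM (y axis, from 0) in each WT library (grey points) and dKO library (orange points) for the 7 members that passed the threshold and for Gnai2, with the group mean and SD as black bars (n = 3 each). In each panel the groups do not overlap, with the widest separation relative to spread in Gnb4 and the lowest level, under 1 CPM, in Rgs13.

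Gng5 and Gngt2 were also higher in each dKO library without passing the threshold. Gng5, a widely expressed γ gene, measured 5.40, 6.69 and 5.78 CPM in WT and 7.60, 8.04 and 7.51 CPM in dKO (log2 fold change 0.37, SE 0.127, edgeR, Benjamini-Hochberg adjusted p = 0.105). Gngt2, the γ gene of cone photoreceptors that immune cells also express, measured 2.19 ± 0.338 and 3.12 ± 0.378 CPM, and 12.5% of its exon bases are shared with Abi3. The neuronal genes Gng2 and Gng3 gave 95% intervals of -10.8 to 5.22% and -5.99 to 14.9%. Gng8, Gng10, Gng11 and Gng13 gave log2 fold changes from 0.05 to 0.46 with groups that overlapped. Of exon bases 72.0% in Gng10, 51.6% in Gng13 and 24.2% in Gng3 are shared with another gene, so their levels are uncertain.

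The protein-coding neighbours of the γ genes that rose gave no call. Lyst and B3galnt2 beside Gng4 had log2 fold changes of -0.05 (SE 0.0806) and -0.05 (SE 0.0942), Gadd45b and Diras1 beside Gng7 had 0.00 (SE 0.132) and -0.04 (SE 0.0656), and Gadd45a beside Gng12 had -0.29 (SE 0.177). Vmn1r39, on the other side of Gng12, had 0 reads in either group.

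Of 17 tested RGS genes 1 rose (5.88%) and 2 fell (11.8%), against 5.90% and 1.05% of all tested genes. Both falls were in the R4 family, small proteins that are little more than an RGS domain and act on Gi/o and Gq subunits, and the rise was in the R7 family, which works as a complex with Gβ5. In the R4 family 7 of 10 genes were tested, with a median log2 fold change of -0.18, and 0 rose in edgeR's quasi-likelihood test, DESeq2 or limma-voom. Of these 7, 4 had an unadjusted p under 0.05, and each of those 4 (Rgs4, Rgs8, Rgs13 and Rgs16) was lower in all dKO libraries than in any WT library. Over all tested genes 20.2% had such a p and 11.2% were lower without overlap. Rgs13 entered the test through its WT libraries alone, which leaves Rgs4 as the fall free of that selection.

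Rgs4 fell by 22.4% (95% interval -29.5 to -14.6%). Its product is a main RGS protein of cortical and hippocampal neurons and limits signalling through Gi/o and Gq. Rgs4 (ENSMUSG00000038530, chromosome 1, 169741477 to 169747642, minus strand) measured 196.1, 170.0 and 180.5 CPM in WT and 141, 137 and 146 CPM in dKO. The WT libraries were spread more widely than the dKO libraries, and no value of one group reached the other. The log2 fold change was -0.37 (SE 0.0647, edgeR, Benjamini-Hochberg adjusted p = 0.00252), and the call was kept in all 9 other settings and with any 1 library left out. As the most abundant RGS gene of the 20, it went from 31.2 ± 1.59% of their units to 26.1 ± 0.513%.

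Rgs13 had few reads. Its protein is known from mast cells and germinal centre B cells. Rgs13 (ENSMUSG00000051079, chromosome 1, 144138654 to 144177372, minus strand) had 12, 15 and 14 reads in WT and 5, 6 and 3 in dKO. The sums of 41 and 14 reads give a ratio of 0.337 (95% counting interval 0.170 to 0.631), an interval that covers counting error only. All dKO libraries were below all WT libraries, and the gene passed the filter on low counts through the WT libraries alone, which favours a difference. The fitted log2 fold change was -1.54 (SE 0.397, edgeR, Benjamini-Hochberg adjusted p = 0.0303). It was lost in DESeq2 (0.159), after GC correction (0.0559, and 0.0799 with a replicate block as well) and with each library left out in turn (0.0585, 0.0950 and 0.0604 without WT replicates 1, 2 and 3, and 0.0880, 0.0540 and 0.157 without dKO replicates 1, 2 and 3). The 8 mast cell markers summed to 117 to 129 CPM in WT and 110 to 126 CPM in dKO, nearly all of it from Kit, which neurons also express. Of the others Fcer1a, Cma1 and Tpsab1 had no read in any library, and Cpa3 was at 0.0348 ± 0.0301 CPM in WT and 0.0850 ± 0.147 CPM in dKO.

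Rgs8 and Rgs16 were lower without passing the threshold. Rgs8 measured 127, 143 and 137 CPM in WT and 115, 118 and 125 CPM in dKO (log2 fold change -0.18, SE 0.0645, edgeR, Benjamini-Hochberg adjusted p = 0.117). Rgs16 measured 7.90, 8.25 and 8.28 CPM in WT and 7.55, 6.34 and 5.53 CPM in dKO (-0.33, SE 0.133, edgeR, Benjamini-Hochberg adjusted p = 0.173). Both are RGS proteins of neurons for Gi/o and Gq subunits. Rgs2, which acts mainly on Gq and whose gene is induced by activity, had a 95% interval of -14.2 to 6.90%. Rgs5, a marker of pericytes, had one of -7.83 to 14.4%, and Rgs3 was at 14.4 ± 1.13 CPM in WT and 13.3 ± 1.15 CPM in dKO.

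Rgs9 rose by 40.2% (95% interval 22.8 to 60.1%). The gene encodes the R7 protein that ends transducin signalling in photoreceptors in its short form and acts on dopamine and opioid receptor signalling in the striatum in its long form. Gene counts do not separate the forms. Rgs9 (ENSMUSG00000020599, chromosome 11, 109225355 to 109298129, minus strand) measured 12.8, 13.01 and 13.6 CPM in WT and 18.2, 19.4 and 17.7 CPM in dKO. Both groups were tight and the gap between them was wider than either. The log2 fold change was 0.49 (SE 0.0888, edgeR, Benjamini-Hochberg adjusted p = 0.00320), and it passed in all 9 other settings and with any 1 library left out.

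The other R7 genes did not rise with it. Rgs11 measured 67.1, 72.3 and 72.1 CPM in WT and 61.8, 65.5 and 60.3 CPM in dKO, lower in each dKO library. Its log2 fold change of -0.17 (SE 0.0616, edgeR, Benjamini-Hochberg adjusted p = 0.124) passed only after GC correction, without a replicate block (0.0347) and with one (0.0376). Rgs7, the most abundant R7 gene in counts, measured 80.3 ± 5.78 and 76.7 ± 2.52 CPM (95% interval -13.3 to 5.16%), and Rgs6 measured 17.5 ± 2.81 and 15.5 ± 1.76 CPM. Rgs7bp, whose product anchors R7 complexes in the membrane, measured 238 ± 26.3 and 235 ± 11.6 CPM, and Gpr158, a receptor-like partner of these complexes, 124 ± 12.2 and 125 ± 4.98 CPM.

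In the R12 and RZ families 0 of 5 tested genes passed in edgeR's quasi-likelihood test, DESeq2 or limma-voom, and 1 in each family had an unadjusted p under 0.05. Rgs10, an RGS protein that is abundant in microglia and also present in neurons, measured 22.9, 20.6 and 24.8 CPM in WT and 26.0, 27.1 and 28.8 CPM in dKO (log2 fold change 0.26, SE 0.0876, edgeR, Benjamini-Hochberg adjusted p = 0.099). It passed only without WT replicate 3 (0.0344). Rgs19, a regulator of Gi subunits, was also higher in each dKO library, at 22.8 ± 1.17 and 25.9 ± 0.760 CPM. Rgs12, Rgs17, Rgs20 and the little-known Rgs22 had log2 fold changes between -0.10 and 0.26 with groups that overlapped.

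**Figure D4:**
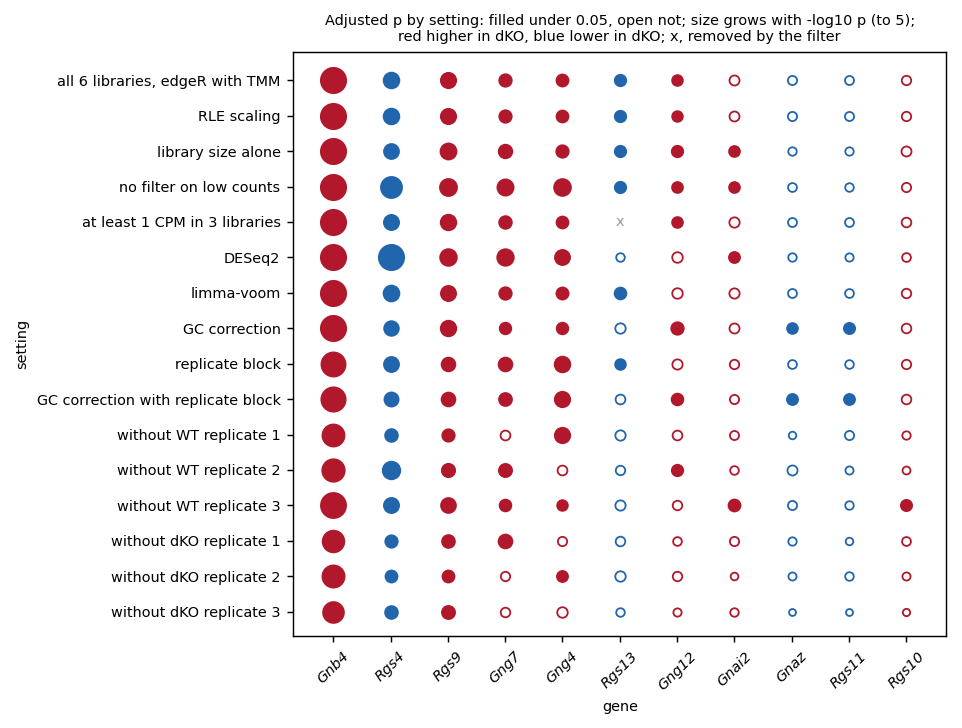
Adjusted p of 11 members (x axis) in edgeR with TMM on all 6 libraries and in 15 other settings (y axis). Filled circles passed the threshold of 0.05, open circles did not, circle size grows with -log10 of the adjusted p, red marks a positive and blue a negative fold change, and x marks a gene removed by the filter. The columns of Gnb4, Rgs4 and Rgs9 are filled throughout.

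The 8 members too low to test are mostly genes of sensory and blood cells. Gnat3 and Rgs21, of taste cells, and Gngt1, of rods, had no read in any library, which allows up to 0.0517 CPM in WT and 0.0511 CPM in dKO over the 3 libraries of a group. Gnat1, of rods, had 10 reads in WT and 20 in dKO (ratio 1.97, 95% counting interval 0.882 to 4.72), and Gnat2, of cones, had 6 and 2. Rgs1 and Rgs18, of lymphocytes and platelets, had 10 and 5 reads in WT and 8 and 0 in dKO. These depths could not show a difference for any of them.

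Several members lie beside another member: 11 pairs have fewer than 200 kb between them, made of 21 genes. In no pair did both genes pass the threshold. Rgs8 and Rgs16, which were both lower in every dKO library, lie 40025 bases apart. Rgs4 fell while Rgs5, 45663 bases away, gave a log2 fold change of 0.04 (SE 0.0723). Rgs9 rose while Gna13, 64701 bases away, gave -0.02 (SE 0.0804). Rgs13 lies between Rgs2 (-0.06, SE 0.0739) and Rgs1, which had too few reads. The other neighbours of Rgs4 and Rgs9 were Ccdc190 (0.06, SE 0.135) and E030025P04Rik, with 3 reads in WT and 0 in dKO.

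Around the members, 72 other genes of the pathway were found in the table, and 69 were tested, of which 3 rose and 1 fell, with a median log2 fold change of -0.00. The 4 calls are 5.80% of the 69, below the 6.95% called over all tested genes, so calls were no more frequent here than elsewhere. Of 4 genes for G protein gated inward rectifier potassium channels, which βγ dimers open, Kcnj9 fell. It measured 144, 134 and 129 CPM in WT and 112, 95.8 and 103 CPM in dKO (log2 fold change -0.39, SE 0.0697, edgeR, Benjamini-Hochberg adjusted p = 0.00285). Its dKO libraries were all below its WT libraries. Kcnj3 and Kcnj6, which encode the main channel partners in the hippocampus, measured 134 ± 15.4 and 29.3 ± 0.685 CPM in WT and 128 ± 4.18 and 29.1 ± 0.695 CPM in dKO.

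Of 13 genes for phospholipase Cβ and diacylglycerol kinases 1 rose. Plcb3, an isoform that both Gq subunits and βγ dimers activate, measured 25.6, 23.8 and 26.6 CPM in WT and 40.8, 39.9 and 38.6 CPM in dKO (log2 fold change 0.65, SE 0.0733, edgeR, Benjamini-Hochberg adjusted p = 4.66e-05). Plcb1, the main isoform of the hippocampus, measured 206 ± 13.5 and 205 ± 1.36 CPM. Of 17 genes for adenylyl cyclases and cAMP phosphodiesterases, Pde8a and Pde8b, which encode phosphodiesterases of high affinity for cAMP, rose. Pde8a measured 23.2, 21.3 and 22.2 CPM in WT and 37.4, 39.9 and 37.7 CPM in dKO (0.79, SE 0.0742, edgeR, Benjamini-Hochberg adjusted p = 8.38e-06). Pde8b went from 74.4 ± 0.851 to 86.6 ± 1.49 CPM (edgeR, Benjamini-Hochberg adjusted p = 0.0253), and lost its call without WT replicate 1 (0.0605) or dKO replicates 1, 2 and 3 in turn (0.118, 0.109 and 0.0920).

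Another 3 lists gave 0 calls in edgeR's quasi-likelihood test, DESeq2 and limma-voom. The first held 13 tested genes of chaperones and non-receptor regulators of the trimer, with the α subunit gene Gnao1 counted among them. The others held 13 other RGS-domain proteins and RGS partners, and 9 receptor kinases and arrestins. In the 3 lists 0, 2 and 0 genes had an unadjusted p under 0.05. The smallest p-values in them belonged to Rasd1 (log2 fold change -0.15, SE 0.0760) and Ric8a (-0.11, SE 0.0674), to Axin2 (0.24, SE 0.0791) and Arhgef12 (0.14, SE 0.0584), and to Sag (0.58, SE 0.294) and Grk4 (0.33, SE 0.169). Rasd1 is a Ras-like activator of Gi subunits and Ric8a a chaperone of α subunits, while Axin2 and Arhgef12 carry RGS-like domains, in a scaffold of Wnt signalling and in a guanine nucleotide exchange factor.

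Markers of other cell types and of neighbouring regions moved with some of these results, and their part in them was not tested. Gng7, Rgs9 and Gnal are known for their high level in the striatum. Of 8 striatal markers 1 rose, Ppp1r1b (33.8 ± 4.92 to 44.7 ± 3.48 CPM). An unadjusted p under 0.05 was found for 4 of the 8, and for 20.2% of all tested genes. The summed level of the 8 was 298 to 308 CPM in WT and 337 to 353 CPM in dKO, most of it from Adcy5 and Pde10a. Without Ppp1r1b the sums were 263 to 278 CPM and 292 to 307 CPM. The striatal receptor genes were low, with Drd1 at 5.13 ± 0.925 and 4.59 ± 0.898 CPM and Drd2 at 1.54 ± 0.295 and 1.87 ± 0.114 CPM.

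Gng12, Gng5, Gnai2 and Rgs10 are also genes of glia. Of all tested genes 20.2% had an unadjusted p under 0.05. Of 8 astrocyte markers 1 rose, Gfap (339 ± 21.7 to 450 ± 23.1 CPM), and 4 had such a p. The astrocyte markers summed to 1739 to 1920 CPM in WT and 2058 to 2097 CPM in dKO. Of 8 oligodendrocyte markers 1 rose, Mbp (2365 ± 159.5 to 2822 ± 146 CPM), 8 had an unadjusted p under 0.05, and the sums were 4301 to 4680 CPM and 4876 to 5457 CPM. In both lists, as in the striatal list, the sums did not overlap between groups, also without the marker that rose. Of 8 microglia markers 0 rose in edgeR's quasi-likelihood test, DESeq2 or limma-voom, with 5 at an unadjusted p under 0.05, and their sums of 329 to 378 CPM in WT and 376 to 431 CPM in dKO overlapped. Among 10 markers of endothelium and pericytes Pdgfrb rose, with sums of 272 to 284.5 CPM in WT and 284.7 to 325 CPM in dKO. That gap is too narrow to read as a separation, and without Pdgfrb the sums overlapped (242 to 256 and 253 to 282 CPM).

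Of 7 choroid plexus markers Kl rose (22.0 ± 1.37 to 58.9 ± 3.45 CPM), and the sums were 30.3 to 45.7 CPM in WT and 59.4 to 124 CPM in dKO. Kl alone separated the groups: without it the other 6 summed to 7.89 to 22.7 CPM in WT and 4.33 to 64.1 CPM in dKO, most of it from Ttr in the highest libraries. The sums of the 10 interneuron markers overlapped between groups, as did those of the 10 pyramidal and granule neuron markers, in which Spink8 rose and Neurod6 fell. So did the sums for 8 genes of thalamus and habenula, in which Prkcd rose and Nwd2 fell.

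**Figure D5:**
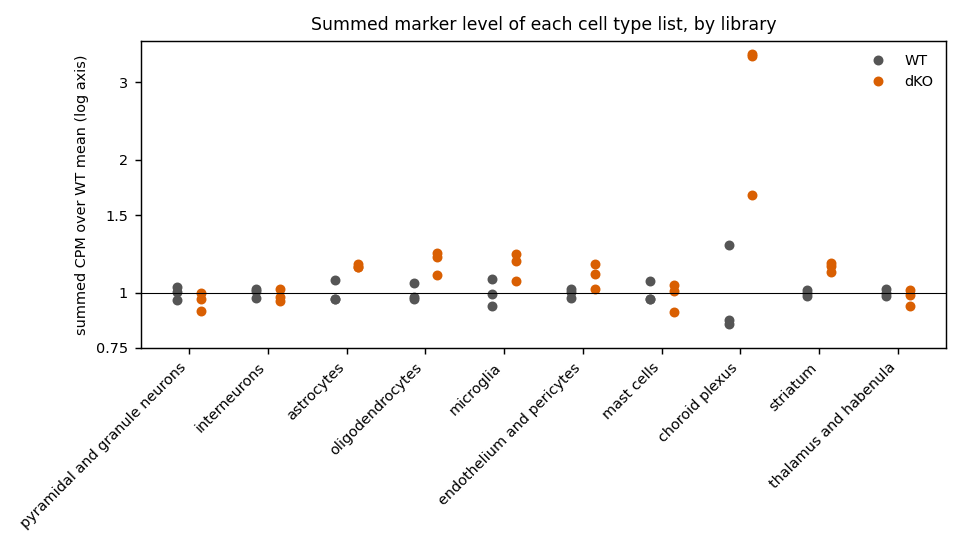
Summed CPM of each list of cell type or region markers (x axis) in each library over the WT mean of that list (y axis, log scale), WT in grey and dKO in orange. The dKO points lie above the WT points without overlap for astrocytes, oligodendrocytes, choroid plexus and striatum, where that of choroid plexus rests on Kl. For endothelium and pericytes the highest WT point (1.0197) and the lowest dKO point (1.0206) are too near to read as a separation, and without Pdgfrb the groups overlap. In the other lists the points of the groups overlap.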

How the data were processed

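The values were gene counts that the authors deposited, whole numbers with 1 column per library and no scaling. Per the submitters' processing notes the tools were cutadapt 1.18, HISAT2 and HTSeq 0.11.1, on the mouse build GRCm38 (mm10). No annotation release or strand setting is given in the sources used here, and reads where genes overlap may have been left out or shared. Symbols, positions and exons came from GENCODE M21, in which 360 identifiers were not found. Of the RGS genes 1, and of the marker lists 1, is not reported here.

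Low counts were removed with filterByExpr (defaults: counts of 10 in a library, 15 in total), libraries were scaled with TMM, and genotype was tested as the sole term in edgeR by its quasi-likelihood method, with p-values adjusted by Benjamini-Hochberg at 0.05. CPM are counts per 1000000 after TMM, while the length-scaled units had no TMM scaling. The SE of a log2 fold change is its size over the square root of F, and the 95% interval uses the t quantile of the fit. Counting intervals are exact binomial ones, and a count of 0 was given a limit of 3 counts. The script was tested on simulated data. The alternatives were DESeq2, limma-voom, RLE scaling, scaling to library size only, no low-count filter, a filter of 1 CPM in 3 libraries, a block for the replicate number, GC correction (loess, span 0.3) with and without this block, leaving out each library, and thresholds of 0.01 and 0.1.

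The members, gene lists and marker lists were chosen with earlier results of these data known. Members past the threshold are given in every library, and the nearest protein-coding gene on each side of them is named. Of each other pathway list up to 4 genes past the threshold are named, or the 2 with the smallest p. Other members given by library, further pathway genes (Rgs7bp, Gpr158, Plcb1, Kcnj3 and Kcnj6) and single markers were named after their values were seen. Software was R 4.3.3, edgeR 4.0.16, limma 3.58.1 and DESeq2 1.42.0.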

Additional observations from a re-analysis of the deposited data

How the results depend on the processing

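The number of members that rose, 5 with all libraries, was 4 to 6 in the 9 other settings (4 with limma-voom or a replicate block), 2 at a threshold of 0.01 and 7 at 0.1, and 2 to 6 on leaving out a library. The number that fell, 2 with all libraries, was 1 in DESeq2 and with at least 1 CPM in 3 libraries, which removed Rgs13, 3 after GC correction, 1 at a threshold of 0.01, and 1 to 1 on leaving out a library. Of the other pathway genes 3 rose and 1 fell with all libraries, 2 to 4 rose and 1 to 1 fell on leaving out a library, and 5 rose at a threshold of 0.1. Of the tested members 3 (Gnb4, Rgs4 and Rgs9) passed in every setting run, 33 passed in none, and 4 (Gnai2, Gnaz, Rgs10 and Rgs11) missed the threshold with all libraries and passed in at least 1 other setting. No member past the threshold in any setting changed direction. Libraries share replicate numbers across groups. Same-numbered libraries gave correlations of 0.00465, -0.00921 and -0.024 in their deviations from the group mean, and differently numbered ones -0.124 to 0.128. Deviations within groups of 3 libraries cannot show whether libraries were paired. With a replicate block 4 members rose and 2 fell. Depth limits the 8 untested members and Rgs13. Where a setting moved a call, the cause was not tested.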
